A study of Mus musculus with 15 samples.

Results

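Expression of 40 mouse genes of ribosome biogenesis and the nucleolus was followed in RAW264.7, a macrophage-like line of mouse origin, after treatment with 4 steroids or vehicle. They were chosen as a named list of genes, with earlier results of these data known. Every listed name was searched for among the gene names of the array. The brightest tested probe, on average over all arrays, stood for each gene. All 40 were found among 36870 gene names, and all 40 were among the 19506 genes tested. Their roles fall into 6 groups, which are RNA polymerase I transcription (4 genes), nucleolar phosphoproteins with a GTPase and a helicase (5), the box C/D snoRNP (4), the box H/ACA snoRNP (4), small subunit maturation (12) and large subunit maturation (11).

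Expression was measured on 15 one-colour arrays, 3 in each of 5 groups. The groups were dexamethasone (DEX), fluticasone furoate (FF), VSG158, VSG159 and a vehicle group given ethanol and DMSO; the 2 VSG compounds are known here by their codes alone. Each steroid was given at 100 nM, and lipopolysaccharide (LPS), an endotoxin to which macrophages respond, followed after 1 h at 1 µg/ml for 16 h. The protocol with LPS is attached to every sample, vehicle included, whereas the vehicle's own labels name the solvents alone. The study text calls the treatments duplicated, the labels number 3 replicates in each group, and neither says whether these were separate cultures, so p-values measure the spread between these samples, which may be technical.

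Ribosome production begins in the nucleolus, where RNA polymerase I transcribes the long precursor of the ribosomal RNAs. Small nucleolar ribonucleoproteins (snoRNPs) then modify that precursor, the box C/D class by ribose methylation and the box H/ACA class by pseudouridylation, and a large set of assembly factors, helicases, GTPases and nucleases cuts it and folds it into the small and the large subunit. In mammalian cells many of these genes are known targets of MYC, a transcription factor that binds the sequence CACGTG together with its partner MAX, and their output generally follows growth and division.

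Values are log2 signals relative to the 75th percentile of the same array, so that 0 is the signal of a probe at that percentile and a difference of 1 is a 2-fold change. A gene was called when its Benjamini-Hochberg adjusted p from the limma fit across all tested genes was under 0.05. All 40 genes were well above background on all 15 arrays, and none had a missing value. All 10 listed macrophage markers were above background on all 15 arrays. Of 5 markers each, this held for 2 of T cells (Cd3e and Lck), 1 of fibroblasts (Dcn), 1 of neutrophils or mast cells (Elane) and 0 of B cells, epithelium and endothelium. Elane averaged 6.26 after DEX, 5.27 after FF, 5.69 after VSG158 and 6.01 after VSG159, against 5.52 in vehicle, and was not called in any of these comparisons (adjusted p 0.297 to 0.845). Its arrays differed within groups, at 6.11, 5.88 and 6.80 after DEX and 5.08, 5.22 and 5.49 after FF. They read 5.36, 4.93 and 6.77 after VSG158 and 6.71, 6.54 and 4.78 after VSG159, against 5.01, 5.52 and 6.05 in vehicle. Of the macrophage markers, 4, 3, 4 and 3 were called higher and 2, 3, 3 and 2 lower than vehicle in the same order. Of the 2 tested fibroblast markers, Dcn was called higher with each steroid, by 0.66 after DEX, 1.23 after FF, 0.95 after VSG158 and 1.16 after VSG159. The other, Col1a2, changed by -1.38 after DEX, -0.91 after FF, -0.62 after VSG158 and -0.96 after VSG159, of which the change with DEX was called (adjusted p 0.0458). Of the 3 tested T cell markers, Lck was called higher with DEX alone (0.26) and Cd3e was not called. Cd3d was called lower with each steroid (-1.67 to -1.90). Of the 2 tested B cell markers, Pax5 was called lower with each steroid (-0.91 to -1.72), and Ms4a1 with DEX (-1.49) and VSG159 (-0.95). Of the 3 tested endothelial markers, Vwf was called lower with FF (-2.23) and Kdr with VSG159 (-1.33). The part of these markers in the results was not tested.

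The arrays lay on 2 slides. The vehicle and VSG158 arrays and replicates 1 and 2 of VSG159 were on slide 1, and VSG159 replicate 3 and the FF and DEX arrays were on slide 2. Groups also occupied neighbouring positions on a slide. VSG158 replicate 3 and VSG159 replicates 1 and 2, at positions 6, 7 and 8 of slide 1, stood apart. Their 75th percentile was 1170 to 1223 signal units, against 695 to 940 units on the other 12 arrays. The scanner software marked 639 to 960 of their spots as outliers, against 98 to 294 spots on the other 12. VSG158 replicate 2 had the smallest share of spots well above background, 39.6%, against 46.4% to 50.4% on all other arrays.

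With every steroid, nearly the whole list was higher than in vehicle. After DEX, 39 of the 40 genes were called higher and 0 lower, where 23.2% of all tested genes were called higher. After FF, 38 were called higher and 0 lower, where 20.9% of all tested genes were called higher. After VSG158, 38 were called higher and 0 lower (19.7% of all tested genes higher), and after VSG159, 39 and 0 (19.1% higher). The shares of all tested genes called lower were 23.1% after DEX, 21.4% after FF, 24.5% after VSG158 and 25.0% after VSG159. The median log2 change of the 40 genes was 1.65 after DEX, 1.75 after FF, 1.65 after VSG158 and 1.66 after VSG159, which are 3.13-, 3.37-, 3.14- and 3.16-fold. Over all tested genes the medians were 0.03, -0.05, -0.06 and -0.06 in the same order. The change was at least 2-fold in 36 genes with DEX and in 35 with each of FF, VSG158 and VSG159, where 8.64%, 8.75%, 7.79% and 7.86% of all tested genes were called and at least 2-fold higher. The 3 steroid arrays did not overlap the 3 vehicle arrays in 39 genes after DEX, 39 after FF, 38 after VSG158 and 39 after VSG159, against 60.0%, 57.3%, 52.3% and 50.8% of all tested genes. A test for any difference among the 5 groups called 38 of the 40 genes and 45.1% of all tested genes. The 4 comparisons use the same 3 vehicle arrays and are given side by side. In bulk RNA, a change per cell and a change in the share of cells that carry an RNA cannot be told apart.

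These calls concerned 38 of 40 genes in all 4 comparisons, against 3047 of the 19506 tested genes (15.6%). The exceptions were Polr1c, not called with any steroid, and Npm1, not called with FF or VSG158. The mean level of the 40 genes on single arrays ran from 3.17 to 3.22 after DEX, 3.33 to 3.36 after FF, 3.19 to 3.30 after VSG158 and 3.24 to 3.33 after VSG159, against 1.49 to 1.65 in vehicle. Every steroid array lay above every vehicle array. Where the compared groups share a slide, the result was as large. On slide 1 alone 38 genes were higher after VSG158 (median 1.65) and 39 after VSG159 (median 1.79). Of all tested genes, 40.8% and 45.3% were then called in either direction. The VSG159 arrays on slide 1 were replicates 1 and 2, both of high signal. No slide holds DEX or FF beside vehicle. With slide as a term in the model, linked through VSG159, 37 genes were higher after DEX and 37 after FF, with medians of 1.64 and 1.85. Of all tested genes, 42.3% and 37.7% were then called in either direction. That term sets VSG159 replicate 3 against replicates 1 and 2, so slide and high array signal cannot be told apart in it. With position on the slide as a further term, 1 gene was called after DEX, 24 after FF, 35 after VSG158 and 32 after VSG159, while the medians were 1.69, 1.85, 1.60 and 1.74. In that model 0.195%, 5.49%, 29.8% and 14.5% of all tested genes were called in either direction. Without the 3 arrays of high signal, an alternative chosen after seeing the data, 39, 38 and 38 genes were called higher after DEX, FF and VSG158. Of all tested genes, 53.5%, 47.5% and 45.6% were then called in either direction. VSG159 then rests on 1 array, and its median change was 1.55.

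**Figure D1:**
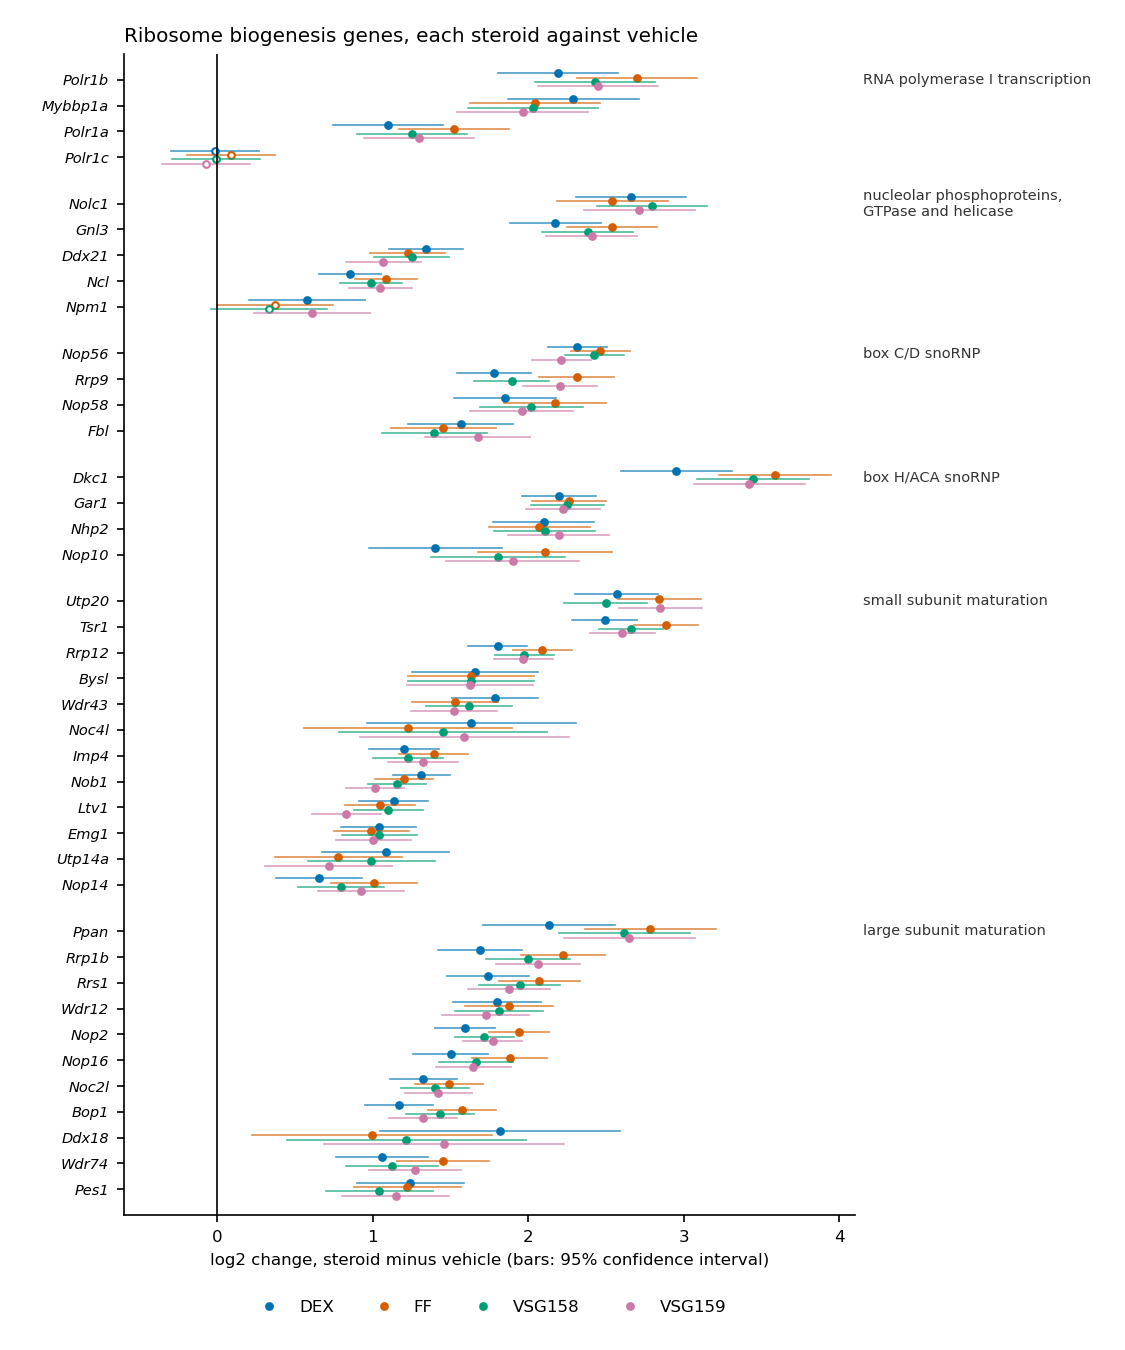
Log2 change of each of the 40 genes (rows, grouped by role) with DEX, FF, VSG158 and VSG159 relative to vehicle, with 95% confidence intervals; filled points are called and open points are not. All points of 39 genes lie right of 0, and Polr1c lies at 0 with all 4 steroids.

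Of the 4 RNA polymerase I genes, 3 rose with every steroid. Polr1b, the second-largest subunit of the polymerase, changed by 2.19 after DEX, 2.7 after FF, 2.43 after VSG158 and 2.45 after VSG159 (SE 0.18). Polr1a, its largest subunit, changed by 1.1 after DEX, 1.52 after FF, 1.25 after VSG158 and 1.3 after VSG159 (SE 0.16), and its call with DEX was lost in 1 alternative (adjusted p 0.0514). Mybbp1a, a nucleolar MYB-binding protein, had the brightest probe of the group. Its levels were 6.61, 6.76 and 6.78 with DEX, 6.39, 6.42 and 6.6 with FF, 6.32, 6.35 and 6.7 with VSG158, 6.6, 6.61 and 5.97 with VSG159, against 4.22, 4.29 and 4.77 in vehicle. Every steroid array was above every vehicle array, and VSG159 replicate 3 was the lowest of the 12 steroid arrays. The changes were 2.29 after DEX, 2.04 after FF, 2.03 after VSG158 and 1.96 after VSG159 (SE 0.19, adjusted p 2.03e-06 to 5.35e-06).

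Polr1c, a subunit shared by RNA polymerases I and III, was singled out after its values were seen, because it was called with none of the 4 steroids. Its levels were 3.05, 2.79 and 2.86 with DEX, 3.02, 3.0 and 2.97 with FF, 3.02, 2.96 and 2.72 with VSG158, 2.76, 2.65 and 3.12 with VSG159, against 3.03, 2.91 and 2.79 in vehicle. The 5 groups overlapped, with all arrays between 2.65 and 3.12. The changes were -0.01 after DEX, 0.09 after FF, -0.01 after VSG158 and -0.07 after VSG159 (SE 0.13), and the 95% confidence intervals ran from -0.35 to 0.37 over the 4 comparisons. A second probe of the gene, which was not used for the counts, gave 0.07 after DEX, 0.17 after FF, -0.03 after VSG158 and -0.07 after VSG159, none of them called. Both 60-base probes are shown because the flat reading rests on them. They match the minus strand at chr17:46381120-46381264 and chr17:46381604-46381786 (mm9, coordinates of the array files), in stretches longer than the probe itself, and the first is the one counted:
Polr1c probe 1: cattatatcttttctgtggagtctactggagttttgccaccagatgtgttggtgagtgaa
Polr1c probe 2: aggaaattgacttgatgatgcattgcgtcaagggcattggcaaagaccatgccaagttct

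All 5 genes of the nucleolar phosphoprotein group were called higher with DEX and VSG159, and 4 of them with FF and VSG158. Nolc1, a nucleolar phosphoprotein that binds snoRNPs, was among the 3 largest changes with DEX, VSG158 and VSG159. Its levels were 4.09, 4.0 and 4.14 with DEX, 4.02, 3.96 and 3.89 with FF, 3.95, 4.12 and 4.56 with VSG158, 4.21, 4.32 and 3.86 with VSG159, against 1.35, 1.27 and 1.62 in vehicle. The lowest steroid array, VSG159 replicate 3, lay at 3.86, far above the highest vehicle array at 1.62. The changes were 2.66 after DEX, 2.54 after FF, 2.79 after VSG158 and 2.71 after VSG159 (SE 0.16, adjusted p 8.22e-08 to 1.91e-07).

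Gnl3, the GTPase nucleostemin, changed by 2.17 after DEX, 2.54 after FF, 2.38 after VSG158 and 2.41 after VSG159 (SE 0.13). Ddx21, an RNA helicase of the nucleolus, changed by 1.34 after DEX, 1.22 after FF, 1.25 after VSG158 and 1.07 after VSG159 (SE 0.11). Ncl, the nucleolar RNA-binding protein nucleolin, changed by 0.85 after DEX, 1.09 after FF, 0.99 after VSG158 and 1.05 after VSG159 (SE 0.09). All 12 of these changes were called.

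Npm1, the histone chaperone and nucleolar protein nucleophosmin, had the brightest probe of the 40 genes and the smallest called change with DEX and VSG159. Its levels were 7.34, 7.6 and 7.9 with DEX, 7.54, 7.41 and 7.29 with FF, 7.58, 7.31 and 7.23 with VSG158, 7.69, 7.85 and 7.41 with VSG159, against 6.85, 6.98 and 7.29 in vehicle. The DEX, FF and VSG159 arrays all lay above the vehicle arrays, FF replicate 3 by a margin lost in rounding at 7.29, and VSG158 replicate 3, at 7.23, lay below the highest vehicle array at 7.29. The changes were 0.58 after DEX, 0.37 after FF, 0.33 after VSG158 and 0.61 after VSG159 (SE 0.17), with adjusted p of 0.0157, 0.103, 0.138 and 0.0119. Its 2 other tested probes read lower changes, of 0.12, -0.03, -0.02 and -0.01 for one and 0.34, 0.22, 0.27 and 0.42 for the other, in the order DEX, FF, VSG158 and VSG159. The Npm1 call with DEX was lost in 4 alternatives (adjusted p 0.0503 to 0.152) and that with VSG159 in 4 (0.0516 to 0.277).

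The 4 genes of the box C/D snoRNP rose with all 4 steroids, with medians of 1.82 after DEX, 2.24 after FF, 1.96 after VSG158 and 2.08 after VSG159. Fbl, the ribose methyltransferase fibrillarin, had levels of 6.36, 6.44 and 6.52 with DEX, 6.37, 6.31 and 6.29 with FF, 6.41, 6.24 and 6.16 with VSG158, 6.7, 6.8 and 6.14 with VSG159, against 4.73, 4.83 and 5.06 in vehicle. The groups did not overlap, and VSG159 replicate 3 was the lowest steroid array at 6.14. The changes were 1.57 after DEX, 1.45 after FF, 1.4 after VSG158 and 1.68 after VSG159 (SE 0.15, adjusted p 3.32e-06 to 1.54e-05). Nop56, a core protein of the particle, changed by 2.32 after DEX, 2.46 after FF, 2.42 after VSG158 and 2.21 after VSG159 (SE 0.09). Nop58, the other core protein of this pair, changed by 1.85 after DEX, 2.17 after FF, 2.02 after VSG158 and 1.96 after VSG159 (SE 0.15).

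Rrp9 is the protein specific to the U3 snoRNP, which is needed for the first cuts of the precursor. Its levels were 0.24, 0.39 and 0.44 with DEX, 1.03, 0.76 and 0.88 with FF, 0.65, 0.36 and 0.4 with VSG158, 0.81, 0.86 and 0.68 with VSG159, against -1.36, -1.36 and -1.55 in vehicle. All steroid arrays lay at 0.24 or above and all vehicle arrays at -1.36 or below, and all 3 FF arrays were above all 3 DEX arrays. The changes against vehicle were 1.78 after DEX, 2.31 after FF, 1.89 after VSG158 and 2.2 after VSG159 (SE 0.11, adjusted p 1.59e-08 to 1.96e-07).

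The 4 box H/ACA genes had the highest median of the 6 roles with DEX, VSG158 and VSG159, at 2.15 after DEX, 2.19 after FF, 2.18 after VSG158 and 2.21 after VSG159, and all 4 genes were called in every comparison. Dkc1, the pseudouridine synthase dyskerin, had the largest change of the 40 genes with every steroid. Its levels were -0.19, 0.24 and -0.12 with DEX, 0.72, 0.62 and 0.49 with FF, 0.45, 0.68 and 0.29 with VSG158, 0.41, 0.5 and 0.43 with VSG159, against -2.63, -3.06 and -3.23 in vehicle. Vehicle arrays lay at -2.63 or below and steroid arrays at -0.19 or above. The changes were 2.95 after DEX, 3.59 after FF, 3.44 after VSG158 and 3.42 after VSG159 (SE 0.16, adjusted p 1.17e-08 to 9.55e-08), between 7.74-fold with DEX and 12-fold with FF. A second Dkc1 probe gave 2.81 after DEX, 3.80 after FF, 4.14 after VSG158 and 3.75 after VSG159, all called. That probe is shown because it repeats the largest change of the list at another place of the transcript, chrX:72345852-72346341 on the plus strand (mm9):
Dkc1 probe 2: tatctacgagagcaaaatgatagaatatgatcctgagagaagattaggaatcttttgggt

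Gar1, a core protein of the H/ACA particle, changed by 2.2 after DEX, 2.26 after FF, 2.25 after VSG158 and 2.22 after VSG159 (SE 0.11). Nop10, the smallest core protein, changed by 1.4 after DEX, 2.11 after FF, 1.8 after VSG158 and 1.9 after VSG159 (SE 0.2). Nhp2, which binds the guide RNA, had the brightest probe of the group, with levels of 6.16, 6.35 and 6.38 with DEX, 6.15, 6.28 and 6.38 with FF, 6.25, 6.18 and 6.49 with VSG158, 6.56, 6.59 and 6.04 with VSG159, against 4.21, 4.09 and 4.3 in vehicle. The groups did not overlap, and the 12 steroid arrays spanned 6.04 to 6.59. The changes were 2.1 after DEX, 2.07 after FF, 2.1 after VSG158 and 2.2 after VSG159 (SE 0.15, adjusted p 2.58e-07 to 5.5e-07).

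All 12 small subunit factors were called higher with all 4 steroids, with medians of 1.47 after DEX, 1.31 after FF, 1.34 after VSG158 and 1.42 after VSG159. Utp20, a large scaffold of the small subunit processome, had levels of 0.84, 0.93 and 1.05 with DEX, 1.32, 1.19 and 1.12 with FF, 0.99, 0.82 and 0.79 with VSG158, 1.43, 1.2 and 1.03 with VSG159, against -1.46, -1.78 and -1.65 in vehicle. The steroid arrays lay at 0.79 or above and the vehicle arrays at -1.46 or below. The changes were 2.57 after DEX, 2.84 after FF, 2.5 after VSG158 and 2.85 after VSG159 (SE 0.12, adjusted p 8.11e-09 to 3.5e-08). Tsr1, which in yeast is a factor of the late pre-40S particle, had levels of 1.48, 1.45 and 1.45 with DEX, 1.81, 1.92 and 1.83 with FF, 1.65, 1.78 and 1.45 with VSG158, 1.49, 1.63 and 1.6 with VSG159, against -0.91, -1.1 and -1.08 in vehicle. All 3 DEX arrays lay between 1.45 and 1.48, under all 3 FF arrays. The changes were 2.49 after DEX, 2.89 after FF, 2.66 after VSG158 and 2.61 after VSG159 (SE 0.09, adjusted p 1.47e-09 to 9.75e-09).

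Emg1, a methyltransferase that acts on a pseudouridine of the small subunit RNA, had the brightest probe of these 12. Its levels were 4.58, 4.34 and 4.6 with DEX, 4.37, 4.51 and 4.49 with FF, 4.64, 4.57 and 4.32 with VSG158, 4.4, 4.48 and 4.54 with VSG159, against 3.45, 3.35 and 3.61 in vehicle. The changes were 1.04 after DEX, 0.99 after FF, 1.04 after VSG158 and 1.0 after VSG159 (SE 0.11, adjusted p 1.1e-05 to 1.61e-05), close to 2-fold with each steroid. Among the others, Rrp12, a factor linked to pre-ribosome export, changed by 1.8 after DEX, 2.09 after FF, 1.97 after VSG158 and 1.97 after VSG159 (SE 0.09). Bysl, a pre-40S factor called Enp1 in yeast, changed by 1.66 after DEX, 1.63 after FF, 1.63 after VSG158 and 1.62 after VSG159 (SE 0.19). Wdr43, a component that binds the nascent precursor, changed by 1.78 after DEX, 1.53 after FF, 1.62 after VSG158 and 1.52 after VSG159 (SE 0.13). Nob1, the nuclease that makes the final cut at the end of the small subunit RNA, changed by 1.31 after DEX, 1.2 after FF, 1.16 after VSG158 and 1.01 after VSG159 (SE 0.08).

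Imp4, a protein of the U3 snoRNP complex, changed by 1.2 after DEX, 1.39 after FF, 1.23 after VSG158 and 1.32 after VSG159 (SE 0.1). Ltv1, which in yeast joins the pre-40S particle, changed by 1.14 after DEX, 1.05 after FF, 1.1 after VSG158 and 0.83 after VSG159 (SE 0.1). Noc4l, whose yeast counterpart pairs with Nop14, changed by 1.64 after DEX, 1.23 after FF, 1.45 after VSG158 and 1.59 after VSG159 (SE 0.31). Nop14 had the smallest change of the 12 with DEX, and changed by 0.66 after DEX, 1.01 after FF, 0.79 after VSG158 and 0.93 after VSG159 (SE 0.13). The Nop14 call with DEX was lost in 4 alternatives (adjusted p 0.0761 to 0.137).

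Utp14a, a processome protein that in yeast activates a helicase, was singled out after its values were seen. It changed by 1.08 after DEX, 0.78 after FF, 0.99 after VSG158 and 0.72 after VSG159 (SE 0.19) on its counted probe, all called. Its probes disagreed with DEX. A probe at chrX:45616154-45616213 gave -0.73 after DEX, 0.80 after FF, 0.65 after VSG158 and 0.75 after VSG159, of which the changes with DEX, FF and VSG159 were called. A probe at chrX:45628267-45628326 gave -0.37, 0.60, 0.76 and 0.49 in the same order, with the last 3 called. One further probe gave 1.33, 1.34, 0.99 and 1.07, all called. With the mean of all tested probes the Utp14a change with DEX was 0.33 (adjusted p 0.105). The call with FF was lost in 3 alternatives (adjusted p 0.0536 to 0.149) and that with VSG159 in 2 (0.0624 to 0.0686). The 2 probes that read lower with DEX lie on the plus strand (mm9) and have these sequences:
Utp14a probe 2: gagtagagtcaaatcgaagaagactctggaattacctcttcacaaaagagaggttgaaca
Utp14a probe 3: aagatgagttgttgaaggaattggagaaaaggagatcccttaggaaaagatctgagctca

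All 11 large subunit factors were called higher with all 4 steroids, with medians of 1.59 after DEX, 1.87 after FF, 1.66 after VSG158 and 1.65 after VSG159. Pes1, Bop1 and Wdr12 form the PeBoW complex, which is needed for processing of the large subunit RNA. Pes1 had levels of 4.59, 4.74 and 4.77 with DEX, 4.64, 4.71 and 4.7 with FF, 4.59, 4.6 and 4.31 with VSG158, 4.69, 4.91 and 4.22 with VSG159, against 3.46, 3.31 and 3.61 in vehicle. The groups did not overlap, and VSG159 replicate 3 was the lowest steroid array at 4.22. The changes were 1.24 after DEX, 1.22 after FF, 1.04 after VSG158 and 1.15 after VSG159 (SE 0.16, adjusted p 5.08e-05 to 0.000184). Bop1 had levels of 2.98, 3.07 and 2.99 with DEX, 3.37, 3.49 and 3.39 with FF, 3.32, 3.26 and 3.25 with VSG158, 3.08, 3.09 and 3.32 with VSG159, against 2.04, 1.81 and 1.68 in vehicle. All 3 FF arrays were above all DEX arrays. The changes were 1.17 after DEX, 1.57 after FF, 1.43 after VSG158 and 1.32 after VSG159 (SE 0.1, adjusted p 1.57e-07 to 2.42e-06). Wdr12 changed by 1.8 after DEX, 1.87 after FF, 1.81 after VSG158 and 1.73 after VSG159 (SE 0.13), and its 4 other tested probes are among those counted below.

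Rrp1b, a nucleolar protein of the RRP1 family, had levels of -0.78, -0.71 and -0.82 with DEX, -0.31, -0.24 and -0.16 with FF, -0.25, -0.51 and -0.61 with VSG158, -0.6, -0.32 and -0.26 with VSG159, against -2.31, -2.44 and -2.63 in vehicle. Steroid arrays lay at -0.82 or above and vehicle arrays at -2.31 or below. The changes were 1.69 after DEX, 2.22 after FF, 2.0 after VSG158 and 2.06 after VSG159 (SE 0.12, adjusted p 4.91e-08 to 6.69e-07). Ppan, the homologue of a yeast large subunit factor, changed by 2.13 after DEX, 2.79 after FF, 2.62 after VSG158 and 2.65 after VSG159 (SE 0.19). Rrs1, which in yeast helps to recruit the small ribosomal RNA of the large subunit, changed by 1.74 after DEX, 2.07 after FF, 1.94 after VSG158 and 1.88 after VSG159 (SE 0.12). Nop2, a methyltransferase of the large subunit RNA, changed by 1.59 after DEX, 1.94 after FF, 1.72 after VSG158 and 1.77 after VSG159 (SE 0.09).

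Nop16, a nucleolar protein known as a MYC target, changed by 1.5 after DEX, 1.88 after FF, 1.66 after VSG158 and 1.65 after VSG159 (SE 0.11). Noc2l, a counterpart of a yeast factor for export of pre-ribosomes, changed by 1.33 after DEX, 1.49 after FF, 1.4 after VSG158 and 1.42 after VSG159 (SE 0.1). Wdr74, which works with the large subunit ATPase NVL, changed by 1.06 after DEX, 1.45 after FF, 1.12 after VSG158 and 1.27 after VSG159 (SE 0.14). Ddx18, an RNA helicase, was singled out after its values were seen, as the gene with the widest standard error of the 40. Its levels were 4.73, 5.1 and 5.41 with DEX, 4.28, 3.95 and 4.55 with FF, 4.13, 4.19 and 5.12 with VSG158, 5.18, 5.08 and 3.91 with VSG159, against 3.05, 3.36 and 3.38 in vehicle. VSG158 replicate 3 and VSG159 replicates 1 and 2, the arrays of high signal, read higher than the other arrays of their groups, and all steroid arrays were above the vehicle arrays. The changes were 1.82 after DEX, 1.0 after FF, 1.22 after VSG158 and 1.46 after VSG159 (SE 0.35). Without those 3 arrays the change was 0.89 with VSG158 (adjusted p 0.0108) and 0.65 with VSG159 (adjusted p 0.119). The Ddx18 call with FF was lost in 9 alternatives (adjusted p 0.0502 to 0.127) and that with VSG158 in 2 (0.0505 to 0.0604).

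**Figure D2:**
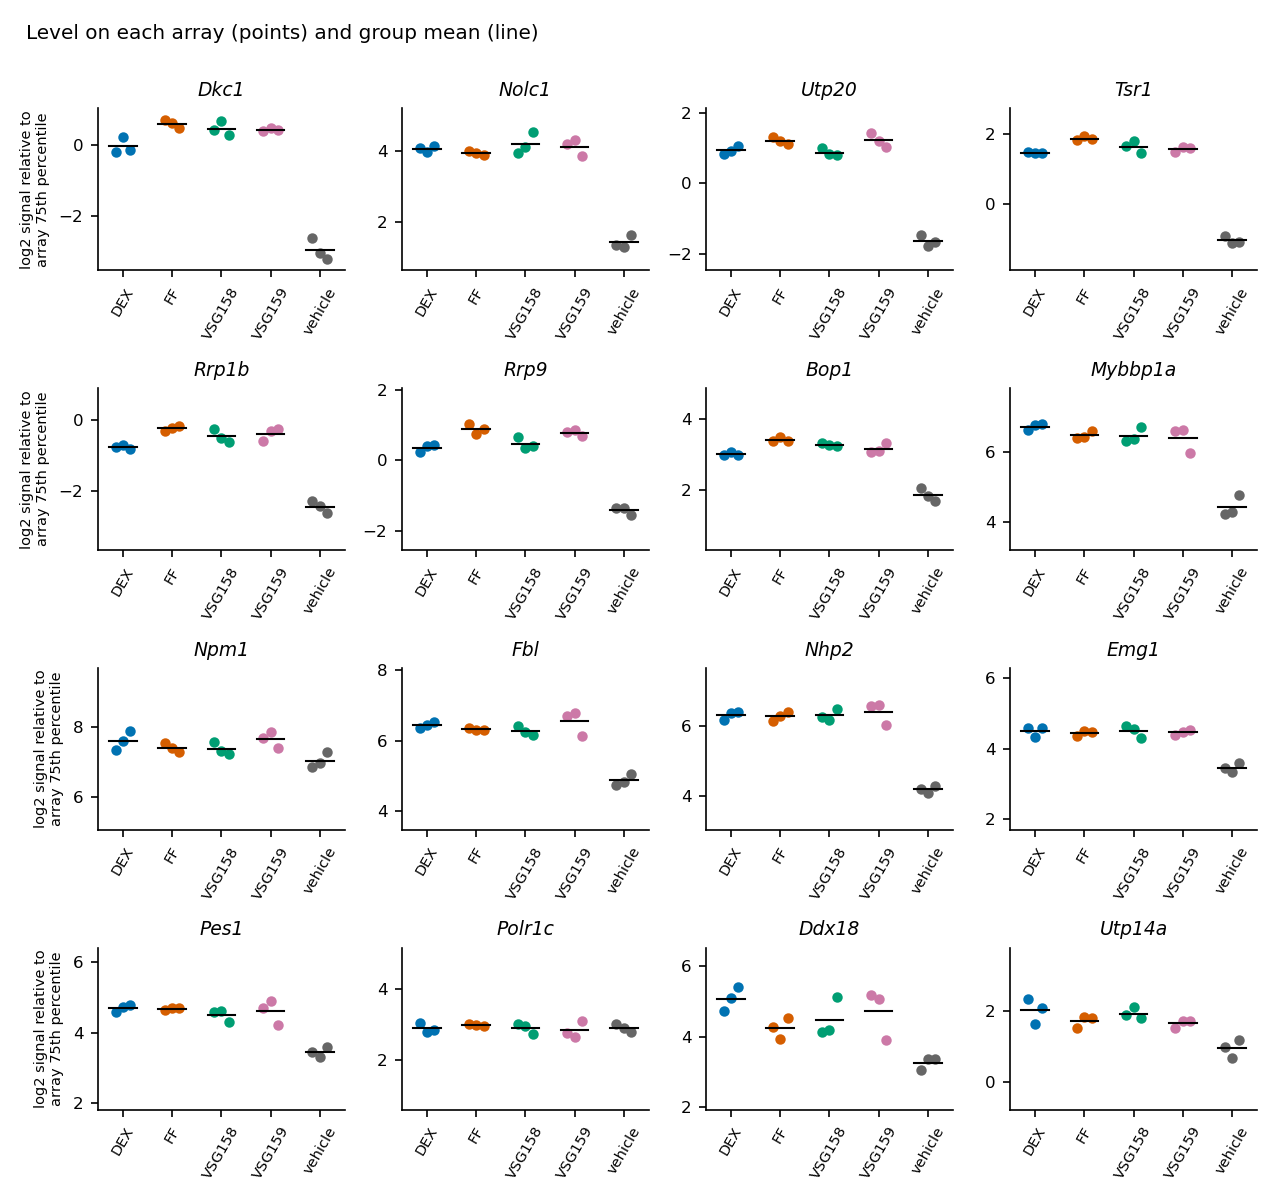
Level of 16 genes on each of the 15 arrays (points) with the group mean (line), as log2 signal relative to the array's 75th percentile; every panel spans the same range of log2 units. Vehicle arrays lie below all steroid arrays in every panel apart from Npm1 and Polr1c; Polr1c, Ddx18 and Utp14a were added after their values were seen.

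Other probes of the same genes gave the same picture in most cases. Of the 40 genes, 23 had further tested probes, 38 in all. For genes called with DEX, 31 of 37 such probes were called higher, 4 were higher without a call and 2 had the opposite sign, 1 of them called. For FF 34 of 35 were called higher, for VSG158 33 of 35, and for VSG159 34 of 37, with 2 of the opposite sign, neither of them called. Both probes of opposite sign with DEX were those of Utp14a.

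Genes of ribosome production outside the 40 were read from lists drawn up by role. Of 43 other small subunit factors, 31 rose after DEX, 28 after FF, 26 after VSG158 and 27 after VSG159, and 0 fell. Of 41 other large subunit factors, 30, 31, 30 and 30 rose in the same order, and 2, 1, 1 and 1 fell. Their medians were 0.67, 0.70, 0.59 and 0.79 for the small subunit list, and 0.75, 0.88, 0.90 and 0.92 for the large subunit list. These were below the medians of the 40 genes in every comparison. The 40 genes and these lists were chosen with earlier results of these data known, so the gap is a description. Nat10, an acetyltransferase of the small subunit RNA, changed by 2.37 after DEX, 2.75 after FF, 2.7 after VSG158 and 2.67 after VSG159. Rcl1, of the small subunit processome, changed by 2.4 after DEX, 2.46 after FF, 2.47 after VSG158 and 2.46 after VSG159. Nol6 changed by 1.94 after DEX, 2.41 after FF, 2.11 after VSG158 and 2.27 after VSG159. Ddx27, a helicase of large subunit assembly, changed by 1.71 after DEX, 1.79 after FF, 1.8 after VSG158 and 1.73 after VSG159. Nle1, a WD-repeat protein of the pre-60S particle, changed by 1.3 after DEX, 1.77 after FF, 1.49 after VSG158 and 1.57 after VSG159. Rsl1d1 changed by 1.85 after DEX, 1.54 after FF, 1.73 after VSG158 and 1.6 after VSG159.

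Of 11 other snoRNP assembly factors, 8, 7, 7 and 7 rose and 1, 0, 1 and 2 fell. Shq1, a chaperone of dyskerin, changed by 2.16 after DEX, 2.17 after FF, 2.13 after VSG158 and 1.98 after VSG159. Znhit6, which helps to assemble box C/D particles, changed by 2.2 after DEX, 2.07 after FF, 1.96 after VSG158 and 2.03 after VSG159. Snu13, a box C/D core protein, changed by 1.08 after DEX, 1.34 after FF, 1.23 after VSG158 and 1.37 after VSG159. Of 15 exosome and nuclease genes, 10, 9, 10 and 8 rose and 3, 3, 3 and 2 fell. Exosc6, a ring subunit of the RNA exosome, changed by 2.73 after DEX, 3.34 after FF, 3.23 after VSG158 and 3.23 after VSG159. Exosc1 changed by 1.74 after DEX, 2.04 after FF, 1.9 after VSG158 and 1.96 after VSG159. Exosc7 changed by 2.09 after DEX, 1.94 after FF, 2.06 after VSG158 and 1.89 after VSG159. Xrn2, an exonuclease acting on the precursor, fell with all 4, by 0.45 with DEX, by 0.52 with FF, by 0.57 with VSG158 and by 0.66 with VSG159.

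The other RNA polymerase I factors moved in both directions. Of 13 genes, 5, 8, 8 and 7 rose and 1, 2, 3 and 1 fell. Polr1e changed by 1.56 after DEX, 1.71 after FF, 1.59 after VSG158 and 1.57 after VSG159. Polr1g, a polymerase subunit listed on the array as Cd3eap, changed by 1.56 after DEX, 1.83 after FF, 1.76 after VSG158 and 1.53 after VSG159. Rrn3, the factor that links the polymerase to the promoter, changed by 0.52 after DEX, 0.69 after FF, 0.77 after VSG158 and 0.71 after VSG159. Ttf1, the factor that ends RNA polymerase I transcription, fell, with changes of -1.8 after DEX, -1.1 after FF, -0.78 after VSG158 and -1.19 after VSG159. With slide and position in the model the Ttf1 change was 0.044 with DEX and 0.29 with FF.

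Most genes of the MAX network, in which MYC and its relatives and antagonists share the partner MAX, fell. Of 9 tested genes of the MAX network, 1 rose with each steroid, and 8, 7, 7 and 7 fell. Myc averaged -0.35 ± 0.16 after DEX, -1.14 ± 0.10 after FF, -1.15 ± 0.52 after VSG158 and -1.30 ± 0.41 after VSG159, against 1.09 ± 0.04 in vehicle (SD, n = 3 each). The Myc changes were -1.44 after DEX, -2.23 after FF, -2.24 after VSG158 and -2.39 after VSG159, with adjusted p of 0.000454, 1.19e-05, 1.2e-05 and 6.89e-06. Mycn, a relative of Myc, was the gene that rose. It averaged 3.28 ± 0.26, 3.33 ± 0.08, 3.28 ± 0.18 and 3.28 ± 0.28 with the 4 steroids in the same order, against 1.35 ± 0.22 in vehicle, and changed by 1.93 after DEX, 1.98 after FF, 1.93 after VSG158 and 1.93 after VSG159. Max itself changed by -0.56 after DEX, -0.34 after FF, -0.36 after VSG158 and -0.47 after VSG159. Mxd1, Mxi1 and Mnt, partners of MAX that repress transcription, also fell. Mxd1 changed by -2.53 after DEX, -3.3 after FF, -2.98 after VSG158 and -3.26 after VSG159. Mxi1 changed by -1.59 after DEX, -2.25 after FF, -2.21 after VSG158 and -2.45 after VSG159. Mnt changed by -1.28 after DEX, -1.2 after FF, -1.33 after VSG158 and -1.24 after VSG159. Myc, Mycn, Max, Rrn3 and Xrn2 were named after their values were seen, and whether these levels bear on the 40 genes was not tested.

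Most listed genes of DNA replication and mitosis rose. Of 22 such genes, 19 rose after DEX, 21 after FF, 21 after VSG158 and 20 after VSG159, and 0 fell, with medians of 1.60, 2.43, 2.29 and 2.37. Tk1, a thymidine kinase of S phase, changed by 3.97 after DEX, 4.74 after FF, 4.68 after VSG158 and 4.63 after VSG159. Mcm6 and Mcm2, subunits of the replicative helicase, rose too. Mcm6 changed by 2.4 after DEX, 3.04 after FF, 3.04 after VSG158 and 2.92 after VSG159. Mcm2 changed by 2.1 after DEX, 2.78 after FF, 2.43 after VSG158 and 2.56 after VSG159. The mean level of the 22 genes on single arrays was 1.72 to 1.74 after DEX, 2.29 to 2.48 after FF, 2.07 to 2.38 after VSG158 and 2.27 to 2.51 after VSG159, against -0.13 to 0.00 in vehicle. Their part in the change of the 40 genes was not tested.

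**Figure D3:**
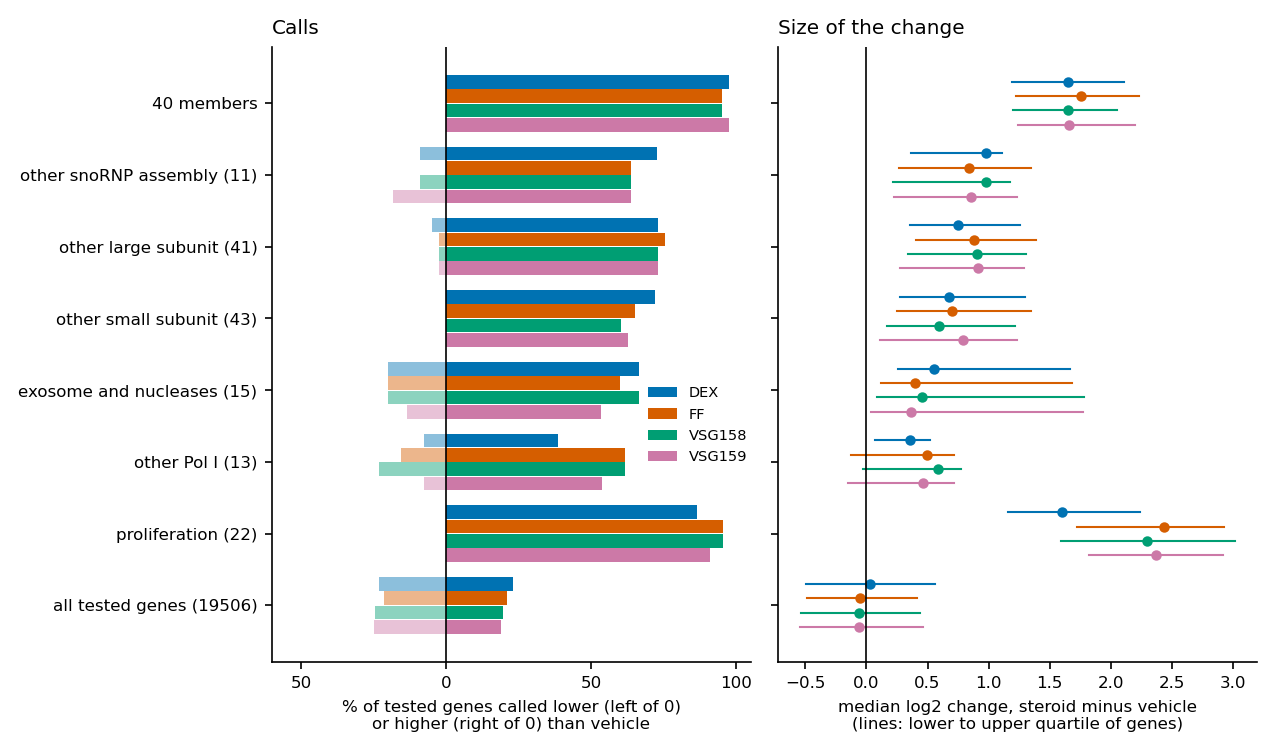
Left, percent of tested genes called lower (left of 0, pale) or higher (right of 0) than vehicle with each steroid, for the 40 genes, 6 other lists and all tested genes (number tested in brackets); right, median log2 change with the quartiles of genes as a line. The 40 genes have no lower call, and the proliferation list had medians of 1.60 after DEX and 2.29 to 2.43 after the other steroids.

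Promoters were read for the CACGTG sequence, on which MYC and MAX and several other factors bind. The RefSeq promoter table (GRCm38.p6, 250 bases before to 50 bases after each gene start) held 35 of the 40 genes. CACGTG, which reads the same on both strands, was in the window of 8 of the 35 genes (22.9%), against 1240 of 11411 tested genes in the table (10.9%) and 2187 of all 27025 genes (8.1%). The 8 were Imp4, Ltv1, Mybbp1a, Nop2, Pes1, Tsr1, Utp20 and Wdr43. Their mean change over the 4 steroids had a median of 1.68, against 1.67 for the 27 genes without the sequence. A match is a description of letters and not a measured site.

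The 4 windows below belong to genes whose levels were given array by array above, and are shown to place the sequence, in capitals, near the gene start. The motif began 38 bases after the start in Utp20, 25 in Tsr1, 41 in Mybbp1a and 3 in Pes1. Utp20 lies on the minus strand at chr10:88826765-88827064, and the other 3 lie on the plus strand, Tsr1 at chr11:74897830-74898129, Mybbp1a at chr11:72441077-72441376 and Pes1 at chr11:3963725-3964024:
Utp20: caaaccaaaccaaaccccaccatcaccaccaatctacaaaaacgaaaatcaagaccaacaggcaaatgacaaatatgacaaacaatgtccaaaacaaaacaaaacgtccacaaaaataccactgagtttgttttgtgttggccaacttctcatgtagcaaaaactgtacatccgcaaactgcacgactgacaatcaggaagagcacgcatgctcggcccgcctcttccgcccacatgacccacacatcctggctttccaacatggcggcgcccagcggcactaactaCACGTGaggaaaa
Tsr1: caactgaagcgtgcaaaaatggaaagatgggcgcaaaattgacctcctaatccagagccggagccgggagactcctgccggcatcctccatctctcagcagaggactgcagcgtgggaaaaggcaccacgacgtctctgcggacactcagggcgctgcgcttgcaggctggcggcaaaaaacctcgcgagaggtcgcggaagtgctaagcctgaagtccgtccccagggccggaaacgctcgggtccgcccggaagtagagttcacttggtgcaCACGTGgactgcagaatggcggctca
Mybbp1a: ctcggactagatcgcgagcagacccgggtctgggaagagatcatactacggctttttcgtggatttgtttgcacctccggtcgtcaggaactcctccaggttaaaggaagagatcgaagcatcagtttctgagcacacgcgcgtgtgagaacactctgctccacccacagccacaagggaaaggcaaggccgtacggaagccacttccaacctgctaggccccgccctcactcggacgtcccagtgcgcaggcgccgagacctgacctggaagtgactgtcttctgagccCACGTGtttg
Pes1: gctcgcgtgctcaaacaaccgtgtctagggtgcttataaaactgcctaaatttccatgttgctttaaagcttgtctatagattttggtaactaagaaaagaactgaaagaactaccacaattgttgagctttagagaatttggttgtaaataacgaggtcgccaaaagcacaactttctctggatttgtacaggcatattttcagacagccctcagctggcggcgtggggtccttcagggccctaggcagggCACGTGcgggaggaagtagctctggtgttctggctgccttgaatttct

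The steroids were also compared with each other, in 6 pairs at the same dose and time. FF was higher than DEX in 5 of the 40 genes and lower in 0, where 1.86% of all tested genes were called higher and 2.28% lower (4.14% in all). Rrp9 differed by 0.53 ± 0.11 (log2 ± SE, adjusted p 0.0251), Rrp1b by 0.53 ± 0.12 (0.0372) and Bop1 by 0.40 ± 0.10 (0.0470). Tsr1 differed by 0.40 ± 0.09 (adjusted p 0.0426) and Nop2, named after its value was seen, by 0.35 ± 0.09 (0.0498). For each of the 5 genes the 3 FF arrays were above the 3 DEX arrays, and across the 40 genes the arrays of FF and DEX did not overlap in 24 (60.0%), against 38.4% of all tested genes. Without an adjustment, 19 of the 40 genes (47.5%) had p under 0.05, 18 of them higher with FF, against 22.4% of all tested genes. The median difference was 0.18, against -0.03 over all tested genes.

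VSG159 was higher than DEX in 1 gene, Rrp9, by 0.42 ± 0.11 (adjusted p 0.0464), where 1.44% of all tested genes were called higher and 4.11% lower (5.55% in all). VSG158 and DEX differed in 0 of 40 genes by limma, where 1.06% of all tested genes were called higher and 0.933% lower (1.99% in all). At an unadjusted p under 0.05 they differed in 4 genes (10.0%), against 16.8% of all tested genes. For VSG158 against FF, VSG159 against FF and VSG158 against VSG159, limma called 0 of the 40 genes and 0% of all tested genes. At an unadjusted p under 0.05 the counts were 5, 4 and 4 of the 40 genes, or 12.5%, 10.0% and 10.0%, against 6.30%, 6.03% and 6.16% of all tested genes. The median differences were -0.11 for VSG158 against FF, -0.13 for VSG159 against FF and -0.01 for VSG158 against VSG159.

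A missed threshold does not show that compounds act alike, and the intervals give the differences the arrays allow. The 95% confidence interval lay within 1 log2 unit of 0 for 40 genes in VSG158 against FF, 38 in VSG159 against FF and 39 in VSG158 against VSG159. It did so for 36 genes in FF against DEX and 39 in both VSG158 and VSG159 against DEX. Ddx18 had the widest interval, from -1.59 to -0.05 in FF against DEX. When p-values were adjusted over all 10 comparisons together, FF and DEX differed in 10 genes, VSG159 and DEX in 2, VSG158 and FF in 1 and the other 3 pairs in 0. The shares of all tested genes were then 9.47% for FF against DEX, 10.2% for VSG159 against DEX and 0.933% for VSG158 against FF.

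The calls between steroids were few and moved with the setting. FF against DEX gave 0 to 10 genes over the listed alternatives with all arrays of both groups, and 0 to 9 when single arrays were left out; it gave 0 without any 1 FF array, without DEX replicate 1 and without DEX replicate 3. It gave 4 on slide 2 alone, which holds both groups, 9 with slide as a term and 12 without the 3 arrays of high signal, an alternative added after seeing the data. Of all tested genes, 7.80% were called with slide as a term and 11.1% without the 3 arrays. With the replicate number as a block it gave 0. VSG159 against DEX gave 0 to 2 genes over the same alternatives, and 4 without the 3 arrays, where 6.93% of all tested genes were called and VSG159 rests on 1 array.

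The difference between FF and DEX was lower for genes with brighter probes. Across the 40 genes the correlation of the difference with the mean signal was -0.66 (Pearson) and -0.71 (Spearman), and over all tested genes it was -0.06 and -0.13. The genes share their arrays, so these are descriptions. The median difference was 0.40 for the 15 genes with a mean signal under 2, 0.07 for the 11 genes between 2 and 4, and -0.04 for the 14 genes above 4. With quantile normalization the correlation was -0.54 (Pearson) and -0.61 (Spearman). The trend was not particular to FF. For VSG158 against DEX the correlations across the 40 genes were -0.605 (Pearson) and -0.641 (Spearman), or -0.425 and -0.392 with quantile normalization. For VSG159 against DEX they were -0.573 and -0.639, or -0.496 and -0.543 with quantile normalization. Each steroid against vehicle also gave a negative Pearson correlation, from -0.47 (FF) to -0.21 (DEX). Probe brightness does not order genes by RNA amount, and its part in these differences was not tested.

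**Figure D4:**
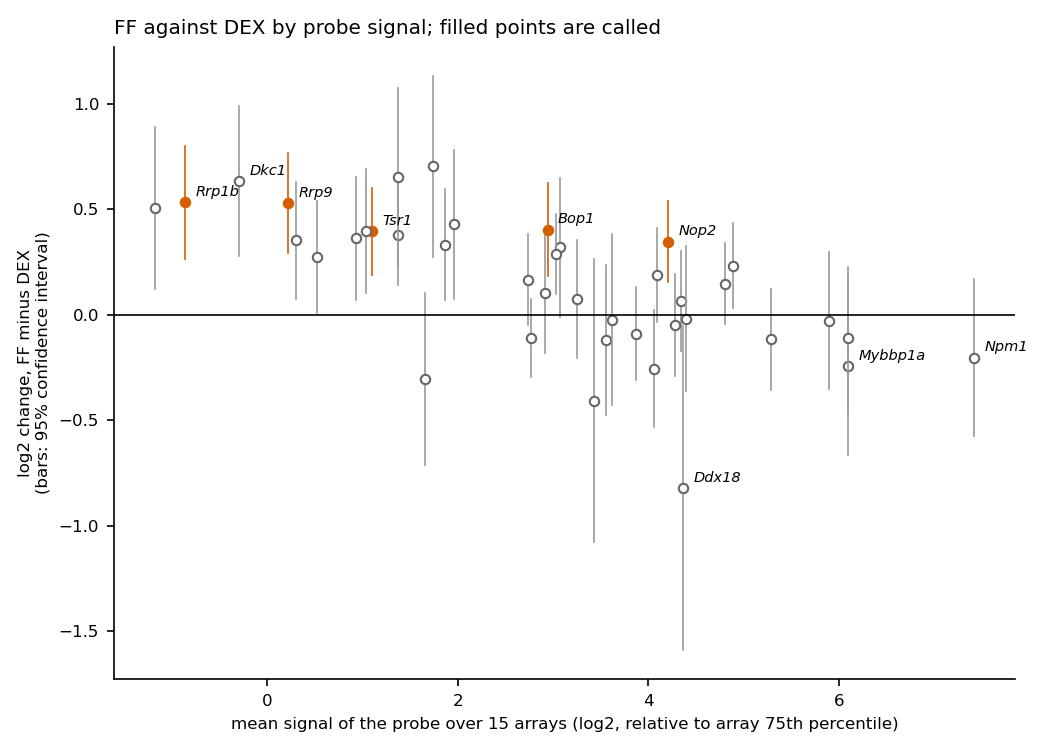
Difference between FF and DEX for each of the 40 genes (log2, with 95% confidence interval) by the mean signal of its probe over all 15 arrays; filled points are the 5 called genes. Most genes with a signal under 2 lie above 0, and those above 4 lie on both sides of it.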

How the data were processed

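RNA of 15 samples of RAW264.7 cells was measured on one-colour Agilent mouse arrays with 150 ng of labelled input. Scanning used the Feature Extraction software and a design that names the mm9 build, per the file headers. The deposited processed intensity of each spot had its background subtracted and was detrended within the array, per the file headers. The deposited value table holds log2 values whose medians run from 5.94 to 5.99, with the centring unstated; limma is named without a version per the submitters' processing notes, and the table served as an alternative alone. Groups were taken from the sample titles. Spots marked as outliers were left out, spots of a probe were averaged, and each array's 75th percentile was subtracted from the log2 processed intensity. A probe was tested when well above background on at least 2 of 3 arrays of at least 1 group, which left 28508 of 56605 probes and 19506 genes. limma 3.58.1 in R 4.3.3 (lmFit and eBayes, group as the only term, 10 residual degrees of freedom) was fitted over all 15 arrays. It gave 10 two-sided comparisons, with Benjamini-Hochberg adjustment within each. The fit was also run on simulated data with independent errors and no slide or position effect, which cannot test for such effects. The number of arrays limits the precision. Array by array values were given for the 3 genes of largest called change in each comparison with vehicle, up to 3 genes of largest called difference between steroids and the brightest gene of each role, and also for Polr1c, Ddx18 and Noc4l, chosen after their values were seen. Alternatives covered scaling, background, probe filter, slide, position, replicate number, samples in the fit and single arrays. The 40 genes, the companion lists and the alternatives were chosen with earlier results of these data known. No reference genome was used, and promoter sequences are RefSeq's.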

Additional observations from a re-analysis of the deposited data

How the results depend on the processing

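Against vehicle, 37 to 39 of the 40 genes were called higher with DEX, FF and VSG158 and 36 to 39 with VSG159 in every alternative but the 2-fold rule and the model with slide and position, and 0 were called lower. Single arrays aside, the share of all tested genes called in either direction moved widely over these alternatives. It ran from 18.9% (FF, no filter) to 54% (DEX, filter on all 15 arrays). With slide and position in the model, 1 gene was called with DEX and 24 with FF, while the lowest and highest medians over all alternatives were 1.52 and 1.71 with DEX and 1.62 and 1.85 with FF; with position following group on each slide, the cause was not tested. Of 154 calls against vehicle, 144 held in each alternative run per gene other than slide and position. Without single arrays, the counts called higher were 38 to 39 with DEX, 37 to 38 with FF, 37 to 38 with VSG158 and 38 to 39 with VSG159. FF against DEX (5 genes) gave 0 with median scaling, the deposited table, no filter, slide and position, the replicate block and the 2-fold rule, 1 with normexp and quantile, 8 with the filter on all 15 arrays and with slide as a random block, 9 with quantile and with slide as a fixed block, 10 adjusted over all 10 comparisons, 12 without the 3 arrays of high signal, and 0 to 9 without single arrays. VSG159 against DEX (1 gene) gave 0 with median scaling, normexp and quantile, the deposited table, no filter, slide as a random block, slide 2 alone, slide and position, the replicate block, the 2 groups alone and the 2-fold rule, 2 with the filter on all 15 arrays and adjusted over all 10 comparisons, 4 without the 3 arrays, and 0 to 2 without single arrays. VSG158 against DEX (0 genes) gave 1 with the mean of all probes, slide as a fixed block and without the 3 arrays; VSG158 against FF (0 genes) gave 1 adjusted over all 10 comparisons. Over all tested genes, FF against DEX gave 807 calls in the main fit. In the settings listed above with 0 of the 40, it gave 2, 379, 111, 0, 309 and 124 in that order. It gave 508 with normexp and quantile, 1248 and 1206 where 8 were called, and 695 and 1522 where 9 were called. VSG159 against DEX gave 1082 in the main fit and 30 with median scaling. It gave 0 with slide and position and with the 2 groups alone, and 1539 with the filter on all 15 arrays. The causes were not tested. Ttf1 lost its calls against vehicle with slide and position in the model. The change was 0.044 for DEX (limma adjusted p 0.989) and 0.29 for FF (0.781). It was -0.33 for VSG158 (0.214) and -0.27 for VSG159 (0.611). Against DEX the sign of the Ttf1 change turned, to -0.38 for VSG158 and -0.32 for VSG159.

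Arrays of the same replicate number were no more alike than others: 7 of 30 same-numbered pairs correlated above 0.1, against 20 of 60 other pairs. Of 15 arrays, 1 correlated best with its own number. The highest correlation, 0.495, joined VSG158 replicate 3 and VSG159 replicate 1, both of high signal. High array signal cuts across the replicate numbers, so this check cannot exclude a pairing. With the replicate number as a block, 39, 37, 38 and 39 genes were called higher with DEX, FF, VSG158 and VSG159, and 0 between FF and DEX. Of all tested genes, 42.5%, 39.5%, 40.9% and 40.9% were then called against vehicle in either direction. Each group had 3 arrays in neighbouring positions, except that VSG159 was split over both slides, and no slide held vehicle with DEX or FF.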

Other observations

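Noc4l, chosen after its values were seen, read high within its group on the arrays of high signal, as Ddx18 did. Its levels were 4.25, 3.3 and 4.11 with DEX, 3.39, 3.59 and 3.46 with FF, 3.55, 3.37 and 4.2 with VSG158, 4.14, 4.16 and 3.22 with VSG159, against 2.1, 2.15 and 2.5 in vehicle. DEX replicates 1 and 3, which were not arrays of high signal, read as high, at 4.25 and 4.11 against 3.3 on DEX replicate 2. VSG158 replicate 3 and VSG159 replicates 1 and 2 were the highest of their groups. Without these 3 arrays, the Noc4l change against vehicle was 1.21 with VSG158 (limma adjusted p 0.00462) and 0.97 with VSG159 (adjusted p 0.0478), where VSG159 rests on 1 array.

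Between steroids, of the 22 listed proliferation genes, 15 were called higher with FF than with DEX, 8 with VSG158 than with DEX and 14 with VSG159 than with DEX, with median differences of 0.70, 0.62 and 0.65. Of all tested genes, 1.86%, 1.06% and 1.44% were called higher in the same comparisons. The 40 genes gave 5, 0 and 1 calls there. Calls between steroids moved with the setting, as given above, and the counts of the 22 genes were read in the main fit alone. Of the 40, 21 had a DEX mean below the means of the other 3 steroids (52.5%), against 42.0% of the 3047 tested genes called higher with all 4.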
